A study of Mus musculus with 79 samples.

Results

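The genes described here encode the heterotrimeric G protein subunits and the RGS proteins, the regulators of G protein signalling. They were taken by symbol from a table of 25899 mouse genes: alpha subunits (Gna), beta subunits (Gnb1 to Gnb5), gamma subunits (Gng followed by a number) and RGS proteins (Rgs followed by a number). The rule used no measured value and gave 51 genes, of which 16 were alpha, 5 beta and 10 gamma subunits and 20 were RGS proteins. The study sequenced ribosome-bound mRNA from neurons that express the dopamine D1 or D2 receptor. All mice were heterozygous BAC (bacterial artificial chromosome) transgenics on a C57BL/6J background that carried eGFP joined to the ribosomal protein L10a, and the promoter of the D1a or of the D2 receptor gene drove the transgene. Tagged ribosomes were pulled down with a GFP antibody from punches of dorsal or ventral striatum or from dissected prefrontal cortex, and each library pooled tissue of 3 mice, with both sexes listed for all but 2 prefrontal libraries, whose sexes are only partly known. Dorsal striatum gave 15 D1 and 16 D2 libraries, ventral striatum 15 D1 and 14 D2 libraries, and prefrontal cortex 19 D1 libraries. No group had a treatment or an age in the labels, no D2 library of prefrontal cortex was analysed here, and the promoter alone defines which cells carried the tag. Whether 1 mouse gave tissue to libraries of several regions is not in the labels.

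A receptor that binds its ligand makes the alpha subunit exchange GDP for GTP and part from the paired beta and gamma subunits, and all parts then act on effectors such as adenylyl cyclases, phospholipase C and potassium channels. RGS proteins end the signal by speeding up GTP hydrolysis on the alpha subunit. In the striatum, the D1 receptor, and in D2 neurons an adenosine receptor, stimulate adenylyl cyclase mainly through the olfactory type alpha subunit encoded by Gnal, whereas the D2 receptor acts through the inhibitory alpha subunits of the Gi and Go class.

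Values are CPM, the reads of a gene scaled to a common library total and thus a share of a library's own reads with no correction for gene length, so that levels of different genes were compared only per kilobase. The libraries held 7.35 to 30.8 M reads in genes (median 17.5 M), and 1 read was worth 0.0124 to 0.0466 CPM. Molecular identifiers were not used, so depth bounds the counting error only. Drd1a, the D1 receptor gene, was at 162.6 to 287.9 (median 231.7) CPM in D1 dorsal striatum, 139.3 to 173.3 (median 155.9) in D1 ventral striatum and 9.52 to 44.8 (median 16.7) in prefrontal cortex, against 6.86 to 40.6 (median 12.1) and 8.23 to 29.1 (median 15.1) in the D2 groups. The D2 receptor gene Drd2 was at 828.0 to 1596 (median 1146) CPM in D2 dorsal and 337.2 to 1184 (median 624.6) in D2 ventral striatum, and at or below 16.2 CPM in every D1 library. The striatal labels were thus matched by their receptor genes, whereas the prefrontal libraries held Drd1a at the level of the D2 striatal libraries together with cortical neuron markers. The sum of 4 cortical glutamatergic markers (Slc17a7, Neurod6, Neurod2, Tbr1) was 447.7 to 771.7 (median 496.8) CPM there, and that of 5 interneuron markers (Sst, Pvalb, Npy, Lhx6, Vip) was 87.2 to 245.1 (median 149.9). In these bulk samples, fewer cells of a type and less RNA per cell cannot be told apart.

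Of the 51 genes, 36 had at least 1 CPM in enough libraries to be tested in each of 6 comparisons between groups, Rgs3 and Rgs6 were tested in 4 comparisons each, and 13 were tested in none. The 13 were Gna14, Gna15, Gnat1, Gnat2, Gnat3, Gnb3, Gng8, Gng11, Rgs1, Rgs11, Rgs13, Rgs18 and Rgs22, and their highest value in any library was 4.2 CPM (Gng11). Gnat3, the taste cell transducin, had no read in any of the 79 libraries, and a count of 0 allows up to 3 reads, or 0.0373 to 0.140 CPM depending on the library. Rgs11, an R7 family member, was at 0.0327 to 2.77 CPM (median 0.677) in D1 and 0 to 0.767 (median 0.38) in D2 dorsal striatum, and Gnb3, the cone beta subunit, had no read in 75 libraries. Gnat1, Gnat2, Gna15, Rgs1 and Rgs18 stayed at or below 0.657 CPM in every library. Rgs13, known from B cells and mast cells, had reads in all 19 prefrontal libraries, at 0.13 to 2.13 CPM (median 0.431), and reached 0.916 CPM in striatum.

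Differences are in log2(CPM + 0.5), first group minus second, so that 1 unit is a doubling and changes of low genes are understated; a gene was called at an adjusted p under 0.05 over all genes tested. The comparisons share groups and are not independent of each other. Between D1 and D2 dorsal striatum, 18 of 36 tested members were called, 11 higher and 7 lower in D1, beside 25.9% of all genes tested (12.8% higher, 13% lower). In ventral striatum 27 of 38 were called between D1 and D2, 14 higher and 13 lower in D1, beside 47.7% of all genes tested (24.1% higher, 23.6% lower). Dorsal against ventral striatum gave 19 of 38 in D1, 5 higher and 14 lower dorsally, beside 34.6% of all genes tested (10.1% higher, 24.5% lower). In D2 the same comparison gave 19 of 36, 4 higher and 15 lower, beside 28.5% of all genes tested (7.93% higher, 20.6% lower). Prefrontal cortex against D1 dorsal striatum gave 32 of 38, 21 higher and 11 lower in cortex, beside 54.8% of all genes tested (32.3% higher, 22.5% lower). Cortex and D1 ventral striatum differed in 35 of 38, 20 of them higher and 15 lower in cortex, beside 62.8% of all genes tested (27.7% higher, 35.1% lower).

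Called members that differed at least 2-fold numbered 5, 4, 3, 9, 20 and 13 in the same order, where 3.36%, 3.62%, 3.45%, 4.15%, 16% and 14.2% of all tested genes did. The median difference of the tested members was 0.06, 0.05, -0.08, -0.25, 0.35 and 0.22, and that of all tested genes 0.02, 0.02, -0.12, -0.12, 0.05 and -0.07. The dorsal against ventral shift of all genes depended on the scaling: with median-ratio scaling the medians were -0.014 in D1 and 0.005 in D2, and all genes called numbered 1663 higher and 1642 lower in D1 and 1398 higher and 1336 lower in D2, against 1144 higher and 2774 lower and 887 higher and 2302 lower with the deposited scaling. The members called were then 6 higher and 12 lower in D1 and 7 higher and 14 lower in D2, and by edgeR 7 higher and 11 lower and 7 higher and 14 lower, where edgeR called 1745 higher and 1500 lower of all genes in D1 and 1357 higher and 1325 lower in D2. Between D1 and D2, scaling to the listed genes gave medians of all genes of 0.071 dorsally and 0.13 ventrally, with 1711 higher and 1153 lower and 3702 higher and 1898 lower called, against 1424 higher and 1447 lower and 2751 higher and 2692 lower. For cortex against D1 dorsal striatum, edgeR called 3119 higher and 3472 lower of all genes, against 3766 higher and 2622 lower. Library names open with 1 of 4 letter codes whose meaning the labels do not give, and only the code EM occurs in all 5 groups. The code OdP held 8 of 16 D2 dorsal, 5 of 14 D2 ventral and 1 of 15 D1 ventral libraries, and none of D1 dorsal striatum or cortex. BdP held 3 D1 dorsal, 2 D1 ventral, 3 prefrontal and 1 D2 ventral libraries, and JAG 1 library of each D1 group. Code and receptor thus ran partly together. With the EM libraries alone the members called were 14 of 37, 21 of 38, 16 of 38, 19 of 38, 33 of 38 and 36 of 38 in the same order, beside 12.3%, 40.1%, 31.3%, 19.8%, 52.5% and 63.7% of all genes. The share of all genes called between D1 and D2 dorsal striatum also moved to 43.3% with array weights (21 of 36 members), 15% with the library code as a covariate (16 of 36) and 17.2% with no filter on low genes (20 of 48). Between D1 and D2 ventral striatum it fell to 10.7% with the percentage of a library's reads that lay in genes as a covariate. Fewer members were then called too, as given in the last section.

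**Figure D1:**
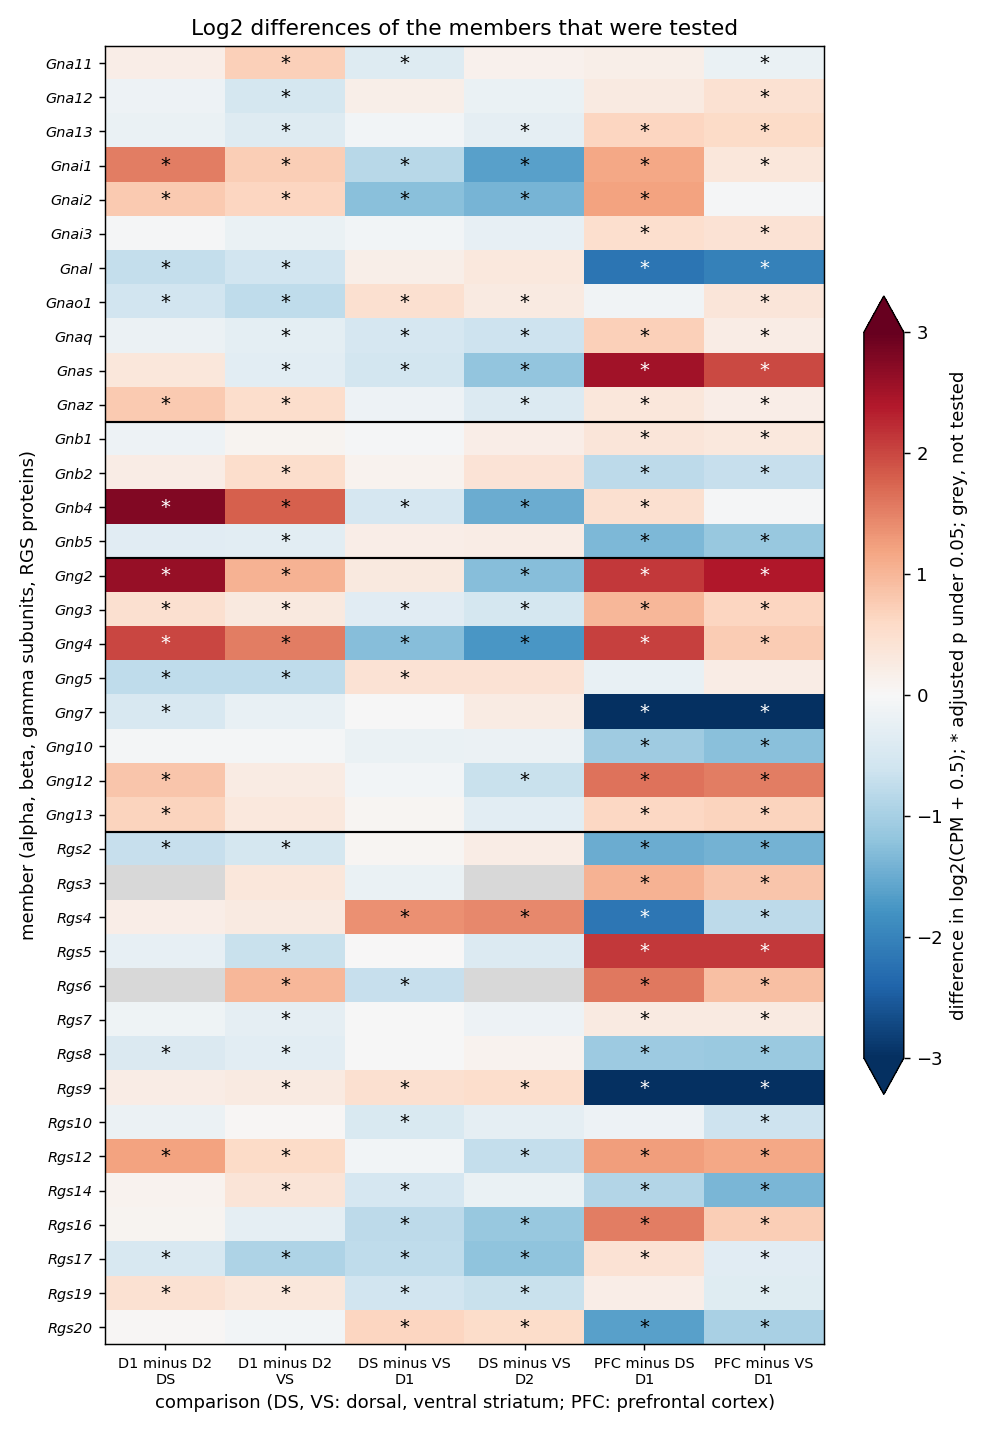
Log2 differences of the 38 tested members (rows, by family) in the 6 comparisons (columns). Red is higher and blue lower in the group named first, the colour scale ends at 3 in each direction, an asterisk marks an adjusted p under 0.05 and grey marks a comparison in which a gene was not tested. The 2 right columns, cortex against striatum, hold the darkest cells: Gng7 and Rgs9 are below -3 in both.

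The 2 alpha subunits that stimulate adenylyl cyclase moved in opposite directions between striatum and cortex. Gnal ranged from 502.1 to 1043 CPM (median 620.7) in D1 and from 747.6 to 1566 (median 1311) in D2 dorsal striatum. Ventral striatal Gnal ranged from 461.8 to 994.3 (median 582.6) in D1 and from 614.9 to 1315 (median 976.9) in D2 libraries, and prefrontal Gnal from 86.2 to 259.4 (median 146.8). Every prefrontal library lay below every striatal library for Gnal, and the D1 and D2 striatal groups overlapped. In prefrontal cortex Gnal was 4.57-fold lower than in D1 dorsal striatum, at -2.19 ± 0.14 (SE, adjusted p = 4.82e-17), and 4.06-fold lower than in D1 ventral striatum, -2.02 ± 0.13 (SE, adjusted p = 3.62e-17). It was also lower in D1 than in D2 neurons with a difference of -0.72 in dorsal (adjusted p = 9.84e-05) and -0.58 in ventral striatum (adjusted p = 0.000525). With adjustment for the percentage of a library's reads that lay in genes (the percentage of gene reads) the ventral difference was -0.09 (adjusted p = 0.72), and with quantile normalization it was -0.29 (adjusted p = 0.0168). The percentage of gene reads itself was 32.81% to 37.55% (median 34.74%) in D1 and 34.67% to 39.79% (median 38.23%) in D2 ventral libraries. Values adjusted for it thus cannot fully separate it from the receptor label there. For Gnal, the comparisons of the 2 striatal regions were as follows. Dorsal and ventral striatum gave differences of 0.17 (adjusted p = 0.335) in D1 and 0.31 (adjusted p = 0.0771) in D2. Within each group Gnal moved with the library code: in D1 dorsal striatum its median was 568.2 CPM in the 11 EM and 1029 in the 3 BdP libraries, and in prefrontal cortex it was 136.7 and 249.99. With the EM libraries alone, Gnal was still lower in cortex (-2.18 against dorsal, -2.01 against ventral striatum) and in D1 (-0.65 dorsal, -0.49 ventral). With the code as a covariate the cortical differences were -2.15 (adjusted p = 2.01e-21) and -1.97 (adjusted p = 1.5e-22), and D1 minus D2 was -0.65 (adjusted p = 0.000303) dorsally and -0.46 (adjusted p = 2.91e-05) ventrally. Dorsal minus ventral Gnal in D2 was called in 5 alternatives (lowest p at 0.49, adjusted p = 0.000202). Gnal overlaps Mppe1 on the opposite strand, as Gnao1 does 4930488L21Rik, Gng13 Chtf18 and Rgs20 Atp6v1h, and whether strand was used in counting is not given in the sources used here.

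Gnas encodes the ubiquitous stimulatory alpha subunit, from an imprinted locus with several start sites that a gene count does not separate and with the antisense transcript Nespas. Gnas ranged from 76.1 to 255.8 CPM (median 155.6) in D1 and from 93.5 to 220.6 (median 118.6) in D2 dorsal striatum. Ventral striatal Gnas ranged from 162.8 to 286.2 (median 228.4) in D1 and from 222.7 to 379.0 (median 277.8) in D2 libraries, and prefrontal Gnas from 668.6 to 1311 (median 880.1). All 19 prefrontal libraries were above all striatal ones, and every D2 ventral library was above every D2 dorsal library. Prefrontal Gnas was 5.7-fold higher than in D1 dorsal striatum, 2.51 ± 0.12 (SE, adjusted p = 7.3e-21), and 3.92-fold higher than in D1 ventral striatum, 1.97 ± 0.08 (SE, adjusted p = 1.49e-23). Dorsal striatum was below ventral striatum with a difference of -0.54 in D1 (adjusted p = 0.00155) and -1.19 in D2 (adjusted p = 1.67e-10). Between D1 and D2 the difference was 0.34 (adjusted p = 0.0803) in dorsal and -0.31 (adjusted p = 0.00629) in ventral striatum, and the dorsal difference was called in 3 alternatives (lowest p at 0.51, adjusted p = 0.000993), whereas the ventral call was lost when libraries were scaled to the listed genes (-0.20, adjusted p = 0.0749), with quantile normalization (-0.10, adjusted p = 0.426), with array weights (-0.22, adjusted p = 0.0554) and with adjustment for the percentage of gene reads (-0.30, adjusted p = 0.114).

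**Figure D2:**
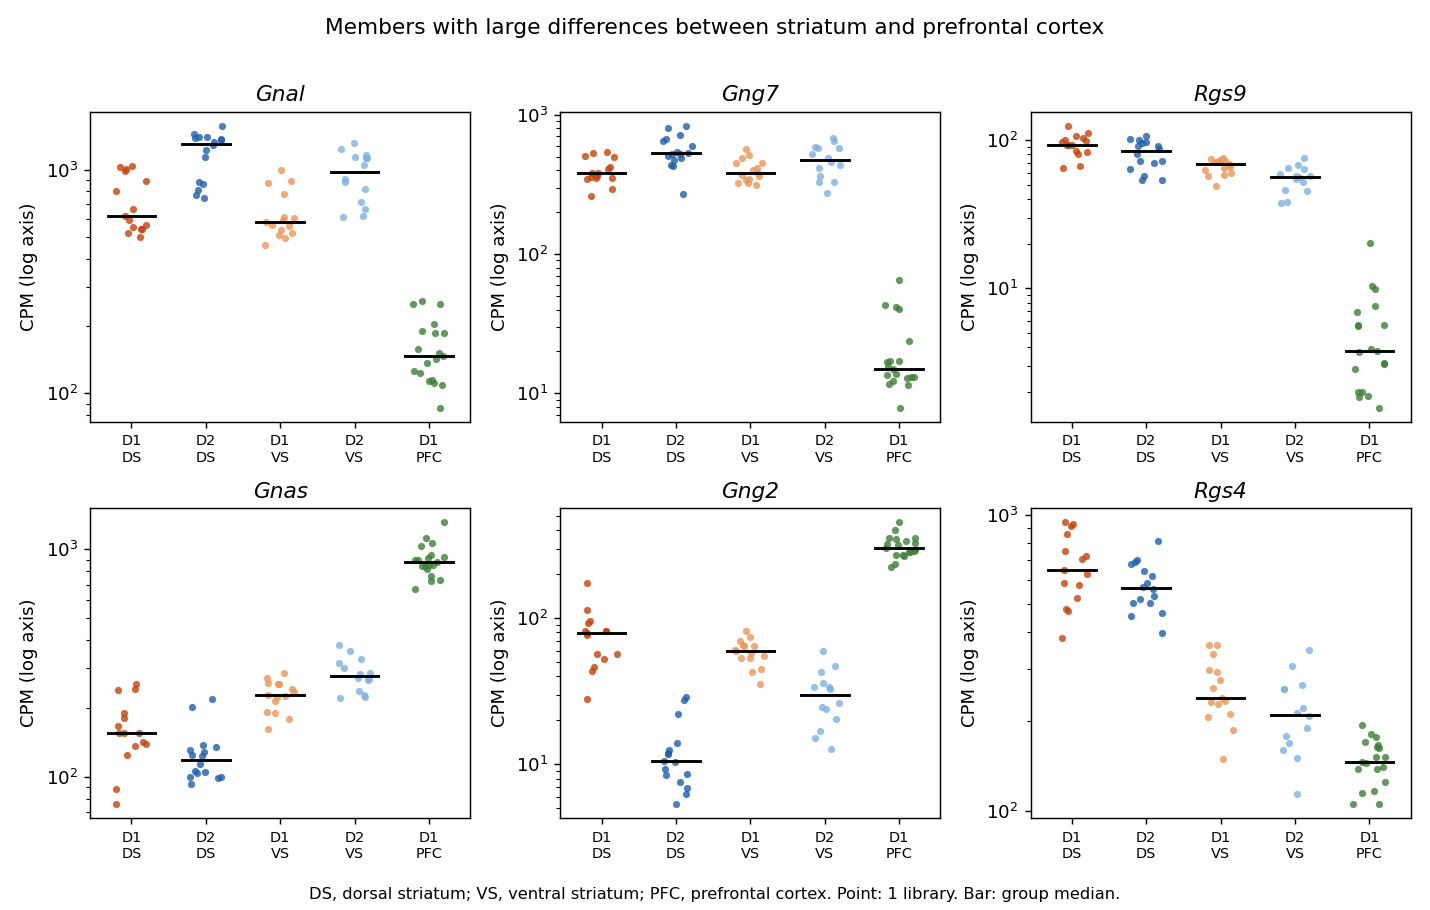
CPM (log axis) of 6 members in each of the 79 libraries, by group; each point is a library and the bar is the group median. Gnal, Gng7 and Rgs9 are lowest in the prefrontal libraries and Gnas and Gng2 highest there, without overlap with any striatal library, and Rgs4 separates dorsal from ventral striatum.

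Among the alpha subunits through which the D2 receptor acts, Gnao1, the Go subunit abundant in brain, was lower in D1 than in D2 neurons, and Gnai1 and Gnai2, which inhibit adenylyl cyclase, were higher. Gnao1 ranged from 531.3 to 1347 CPM (median 824.2) in D1 and from 921.7 to 1503 (median 1229) in D2 dorsal striatum. Ventral striatal Gnao1 ranged from 499.3 to 710.6 (median 561.4) in D1 and from 772.4 to 1429 (median 1039.5) in D2 libraries, and prefrontal Gnao1 from 507.6 to 976.6 (median 764.6). In ventral striatum the D1 libraries all lay below the D2 libraries, and in dorsal striatum the groups overlapped. Gnao1 was lower in D1 with a difference of -0.57 ± 0.11 (SE, adjusted p = 0.000111) in dorsal and -0.77 ± 0.09 (SE, adjusted p = 1.09e-08) in ventral striatum, values of -0.28 and -0.46 with quantile normalization. In D1 its dorsal level exceeded the ventral one, 0.47 (adjusted p = 0.000218), whereas the difference in D2, 0.26 (adjusted p = 0.0421), lost its call in 5 alternatives: without a filter on low genes, with quantile normalization (0.11, adjusted p = 0.312), with the EM libraries alone (0.28, adjusted p = 0.156), with the OdP libraries alone (0.20, adjusted p = 0.143) and without D2 ventral striatum replicate 2 (0.25, adjusted p = 0.0659). Prefrontal Gnao1 was above D1 ventral striatum by 0.36 (adjusted p = 0.000193), and the difference from D1 dorsal striatum was -0.11 (adjusted p = 0.383).

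Gnai1 ranged from 73.8 to 216.7 CPM (median 92.7) in D1 and from 23.0 to 75.3 (median 30.4) in D2 dorsal striatum. Ventral striatal Gnai1 ranged from 157.4 to 243.0 (median 174.8) in D1 and from 77.3 to 166.0 (median 110.9) in D2 libraries, and prefrontal Gnai1 from 150.1 to 433.0 (median 223.1). Every D2 ventral library was above every D2 dorsal library, and D2 dorsal striatum was the lowest group. Gnai1 was 2.91-fold higher in D1 than in D2 dorsal striatum, 1.54 ± 0.16 (SE, adjusted p = 1.05e-09), and 1.66-fold higher in ventral striatum, 0.73 ± 0.10 (SE, adjusted p = 7.46e-07). Dorsal striatum was below ventral striatum with a difference of -0.82 in D1 (adjusted p = 8.56e-07) and -1.63 in D2 (adjusted p = 8.45e-11), and cortex was above D1 dorsal striatum by 1.17 (adjusted p = 6.3e-10) and above D1 ventral striatum by 0.34 (adjusted p = 0.00707). Gnai2 ranged from 8.47 to 24.7 CPM (median 14.2) in D1 and from 3.58 to 18.9 (median 8.15) in D2 dorsal striatum. Ventral striatal Gnai2 ranged from 28.3 to 49.9 (median 36.7) in D1 and from 13.7 to 39.1 (median 23.4) in D2 libraries, and prefrontal Gnai2 from 13.6 to 47.1 (median 37.0). In D1 neurons all ventral libraries exceeded all dorsal ones, and in D2 neurons the regions overlapped. Gnai2 was 2.39-fold lower dorsally than ventrally in D1, -1.26 ± 0.13 (SE, adjusted p = 1.06e-09), and 2.63-fold lower in D2, -1.39 ± 0.18 (SE, adjusted p = 1.07e-07). Prefrontal Gnai2 was above dorsal striatum (1.21, adjusted p = 7.62e-10), and its difference from ventral striatum was -0.04 (adjusted p = 0.741). Between receptors it was higher in D1 by 0.79 in dorsal (adjusted p = 0.000618) and 0.65 in ventral striatum (adjusted p = 0.000265), the latter 0.21 (adjusted p = 0.436) with adjustment for the percentage of gene reads.

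Gnai3 encodes another inhibitory subunit of the same class. Gnai3 ranged from 6.96 to 13.1 CPM (median 9.56) in D1 and from 6.59 to 13.6 (median 10.0) in D2 dorsal striatum. Ventral striatal Gnai3 ranged from 6.85 to 12.8 (median 10.5) in D1 and from 6.46 to 21.2 (median 12.1) in D2 libraries, and prefrontal Gnai3 from 10.0 to 26.0 (median 14.2). All groups overlapped. Cortex was above striatum, by 0.51 against dorsal (adjusted p = 2.43e-05) and 0.42 against ventral D1 libraries (adjusted p = 0.000193), and none of the 4 striatal comparisons was called (differences of -0.24 to -0.04), except D1 against D2 ventrally with the library code as a covariate (-0.34, adjusted p = 0.0163). Gnaz, a related subunit that hydrolyses GTP slowly, was higher in D1 than in D2. Gnaz ranged from 47.1 to 95.9 CPM (median 73.8) in D1 and from 30.0 to 52.4 (median 42.8) in D2 dorsal striatum. Ventral striatal Gnaz ranged from 66.5 to 101.7 (median 81.0) in D1 and from 43.2 to 71.3 (median 57.3) in D2 libraries, and prefrontal Gnaz from 65.7 to 116.2 (median 93.4). The receptor groups overlapped in both regions. The D1 minus D2 difference was 0.78 ± 0.08 (SE, adjusted p = 3.33e-09) in dorsal and 0.52 ± 0.08 (SE, adjusted p = 6.16e-06) in ventral striatum.

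Gnaq and Gna11 encode the alpha subunits that activate phospholipase C beta. Gnaq ranged from 48.2 to 112.4 CPM (median 80.7) in D1 and from 69.9 to 118.9 (median 97.2) in D2 dorsal striatum. Ventral striatal Gnaq ranged from 97.1 to 157.7 (median 106.4) in D1 and from 91.5 to 182.3 (median 149.8) in D2 libraries, and prefrontal Gnaq from 107.4 to 169.4 (median 132.2). Dorsal libraries tended to be lower than ventral and prefrontal ones, with overlap. Gnaq was lower dorsally than ventrally in D1, -0.50 ± 0.10 (SE, adjusted p = 0.000175), and in D2, -0.63 ± 0.09 (SE, adjusted p = 2.94e-06), and higher in cortex than in dorsal striatum, 0.71 ± 0.09 (SE, adjusted p = 1.18e-08). Its D1 minus D2 difference in ventral striatum, -0.30 (adjusted p = 0.00749), turned to 0.05 (adjusted p = 0.768) with adjustment for the percentage of gene reads. Gna11 ranged from 19.6 to 51.8 CPM (median 44.2) in D1 and from 13.9 to 58.3 (median 37.1) in D2 dorsal striatum. Ventral striatal Gna11 ranged from 44.7 to 62.5 (median 54.2) in D1 and from 15.1 to 52.5 (median 33.1) in D2 libraries, and prefrontal Gna11 from 26.2 to 54.4 (median 47.1). D1 ventral striatum had the highest median, and all groups overlapped. In ventral striatum D1 exceeded D2 for Gna11, 0.71 ± 0.13 (SE, adjusted p = 4.67e-05), a call lost with the same adjustment (0.35, adjusted p = 0.143). It was lower in dorsal than in ventral D1 libraries, -0.38 (adjusted p = 0.00314), which edgeR's quasi-likelihood test on the recovered reads put at -0.25 (adjusted p = 0.05).

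Gna12 and Gna13 form a class of alpha subunits of their own. Gna12 ranged from 4.14 to 10.1 CPM (median 6.35) in D1 and from 4.92 to 9.82 (median 6.84) in D2 dorsal striatum. Ventral striatal Gna12 ranged from 4.18 to 9.36 (median 5.4) in D1 and from 3.61 to 17.5 (median 7.69) in D2 libraries, and prefrontal Gna12 from 3.77 to 11.3 (median 8.31). All groups overlapped, and Gna12 was called in ventral striatum, where D1 was lower (-0.52, adjusted p = 0.00699; -0.86, adjusted p = 0.000126 with EM libraries alone and -0.55, adjusted p = 0.103 with adjustment for the percentage of gene reads), and in cortex against ventral striatum (0.45, adjusted p = 0.00198). Gna13 ranged from 9.71 to 21.1 CPM (median 15.3) in D1 and from 13.6 to 26.6 (median 17.9) in D2 dorsal striatum. Ventral striatal Gna13 ranged from 11.4 to 20.3 (median 16.2) in D1 and from 15.1 to 29.4 (median 21.6) in D2 libraries, and prefrontal Gna13 from 17.8 to 34.2 (median 23.3). Prefrontal libraries were the highest group, with overlap. Gna13 was higher in cortex than in D1 dorsal, 0.65 ± 0.09 (SE, adjusted p = 1.36e-07), and D1 ventral striatum, 0.58 ± 0.08 (SE, adjusted p = 1.52e-07). Its lower level in D1 in ventral striatum, -0.38 (adjusted p = 0.00173), was -0.36 (adjusted p = 0.0764) with that adjustment, and its dorsal against ventral difference in D2, -0.27 (adjusted p = 0.0417), lost its call in 9 of the alternatives.

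Of the beta subunits, Gnb4 was the member with the largest called difference between D1 and D2 neurons. Gnb4 ranged from 19.9 to 43.0 CPM (median 30.9) in D1 and from 1.58 to 9.78 (median 4.75) in D2 dorsal striatum. Ventral striatal Gnb4 ranged from 38.8 to 62.6 (median 46.7) in D1 and from 6.94 to 17.6 (median 14.4) in D2 libraries, and prefrontal Gnb4 from 23.9 to 67.2 (median 47.8). The D1 and D2 libraries did not overlap in either striatal region, and the prefrontal libraries overlapped the D1 libraries. Gnb4 was 6.85-fold higher in D1 than in D2 dorsal striatum, 2.78 ± 0.15 (SE, adjusted p = 1.19e-17), and 3.46-fold higher in ventral striatum, 1.79 ± 0.10 (SE, adjusted p = 1.14e-16). It was lower in dorsal than in ventral striatum with a difference of -0.51 in D1 (adjusted p = 3.03e-05) and -1.49 in D2 (adjusted p = 1.85e-09). Against cortex, the D1 dorsal libraries were lower (0.48, adjusted p = 0.00056 for cortex minus dorsal) and the ventral ones gave -0.02 (adjusted p = 0.857). Gnb1 ranged from 303.4 to 398.8 CPM (median 365.4) in D1 and from 336.6 to 455.1 (median 407.2) in D2 dorsal striatum. Ventral striatal Gnb1 ranged from 333.5 to 400.1 (median 373.0) in D1 and from 261.6 to 478.0 (median 351.1) in D2 libraries, and prefrontal Gnb1 from 348.3 to 509.8 (median 460.6). All groups overlapped, none of the 4 striatal comparisons was called (-0.16 to 0.19), and cortex was above dorsal striatum by 0.35 ± 0.06 (SE, adjusted p = 4.54e-06) and above ventral striatum by 0.31 (adjusted p = 2.46e-06). Alternatives called Gnb1 within striatum: 3 of them for D1 against D2 dorsally (lowest p at -0.22, adjusted p = 0.00493), 1 ventrally (0.33, adjusted p = 0.00737) and 3 for dorsal against ventral striatum in D2 (lowest p at 0.32, adjusted p = 0.00322).

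Gnb5 is the beta subunit that pairs with the R7 group of RGS proteins and stabilises them. Gnb5 ranged from 10.1 to 34.3 CPM (median 26.1) in D1 and from 12.5 to 46.2 (median 34.5) in D2 dorsal striatum. Ventral striatal Gnb5 ranged from 16.4 to 26.4 (median 21.2) in D1 and from 11.1 to 38.7 (median 29.3) in D2 libraries, and prefrontal Gnb5 from 5.05 to 13.5 (median 9.22). Every D1 ventral library exceeded every prefrontal library, and the dorsal and prefrontal libraries overlapped. Gnb5 was 2.54-fold lower in cortex than in D1 dorsal striatum, -1.34 ± 0.12 (SE, adjusted p = 1.22e-12), and 2.19-fold lower than in D1 ventral striatum, -1.13 ± 0.09 (SE, adjusted p = 2.59e-14). Its D1 minus D2 difference in ventral striatum, -0.32 (adjusted p = 0.0456), lost its call in 6 alternatives. Gnb2 ranged from 15.1 to 73.2 CPM (median 31.6) in D1 and from 15.99 to 44.5 (median 24.8) in D2 dorsal striatum. Ventral striatal Gnb2 ranged from 17.7 to 35.0 (median 30.4) in D1 and from 11.2 to 37.7 (median 18.1) in D2 libraries, and prefrontal Gnb2 from 8.91 to 22.8 (median 18.8). The groups overlapped, and cortex was below D1 dorsal (-0.79, adjusted p = 9.01e-06) and D1 ventral striatum (-0.70, adjusted p = 2.61e-07). In ventral striatum Gnb2 was higher in D1 (0.53, adjusted p = 0.00473), a difference of -0.05 (adjusted p = 0.878) with adjustment for the percentage of gene reads. Gnb2 overlaps Epo on the same strand, so its counts are uncertain.

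Gng7 encodes the gamma subunit that assembles with the Gnal product in striatal neurons. Gng7 ranged from 259.5 to 536.0 CPM (median 379.0) in D1 and from 269.1 to 826.5 (median 529.4) in D2 dorsal striatum. Ventral striatal Gng7 ranged from 313.6 to 564.2 (median 384.0) in D1 and from 272.2 to 679.8 (median 475.1) in D2 libraries, and prefrontal Gng7 from 7.89 to 64.7 (median 15.01). The highest prefrontal library was below the lowest striatal one. Prefrontal Gng7 was 21.2-fold lower than in D1 dorsal striatum, -4.40 ± 0.20 (SE, adjusted p = 7.38e-22), and 21.4-fold lower than in D1 ventral striatum, -4.42 ± 0.19 (SE, adjusted p = 9.78e-23). The prefrontal library with the highest Gng7, replicate 6, also had the highest Rgs9 and Drd1a of its group (20.2 and 44.8 CPM), and the 3 next highest in Gng7 were the libraries of the codes BdP and JAG with the highest Gnal. Without replicate 6 the differences were -4.50 and -4.52, and with the EM libraries alone -4.49 and -4.53. Within striatum Gng7 was lower in D1 than in D2 dorsal libraries, -0.47 ± 0.12 (SE, adjusted p = 0.00451), a call lost with quantile normalization (-0.29, adjusted p = 0.103), and the other 3 striatal comparisons were not called (-0.22 to 0.24), except D1 against D2 ventrally with array weights (-0.38, adjusted p = 0.00364).

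Gng3, a gamma subunit of neurons, went the other way. Gng3 ranged from 137.5 to 201.0 CPM (median 168.8) in D1 and from 73.2 to 165.6 (median 123.7) in D2 dorsal striatum. Ventral striatal Gng3 ranged from 180.2 to 268.1 (median 219.6) in D1 and from 102.2 to 272.3 (median 172.2) in D2 libraries, and prefrontal Gng3 from 216.3 to 415.5 (median 334.4). Prefrontal libraries all exceeded the D1 dorsal libraries and overlapped the ventral ones. Gng3 was higher in cortex than in D1 dorsal striatum by 0.99 ± 0.07 (SE, adjusted p = 4.97e-15) and than in D1 ventral striatum by 0.64 ± 0.07 (SE, adjusted p = 1.6e-10). It was lower dorsally than ventrally in D1 (-0.34, adjusted p = 7.34e-05) and D2 (-0.52, adjusted p = 0.000812). D1 exceeded D2 by 0.48 in dorsal (adjusted p = 0.000131) and 0.30 in ventral striatum (adjusted p = 0.0113), the latter 0.26 (adjusted p = 0.117) with the EM libraries alone and 0.22 (adjusted p = 0.312) with adjustment for the percentage of gene reads. Gng3 overlaps Bscl2 on the opposite strand.

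Gng2 and Gng4 encode gamma subunits that were high in cortex and, within striatum, higher in D1 than in D2 neurons. Gng2 ranged from 28.1 to 175.6 CPM (median 79.5) in D1 and from 5.36 to 28.9 (median 10.5) in D2 dorsal striatum. Ventral striatal Gng2 ranged from 35.4 to 81.9 (median 60.0) in D1 and from 12.7 to 59.3 (median 29.7) in D2 libraries, and prefrontal Gng2 from 224.1 to 452.8 (median 302.1). All prefrontal libraries exceeded all striatal ones, and the D1 and D2 libraries of dorsal striatum overlapped at 28.1 to 28.9 CPM. Gng2 was 4.32-fold higher in cortex than in D1 dorsal striatum, 2.11 ± 0.15 (SE, adjusted p = 6.9e-16), and 5.29-fold higher than in D1 ventral striatum, 2.40 ± 0.09 (SE, adjusted p = 2.41e-24). It was 6.13-fold higher in D1 than in D2 dorsal striatum, 2.62 ± 0.22 (SE, adjusted p = 6.92e-12), and 2.05-fold higher in ventral striatum, 1.04 ± 0.17 (SE, adjusted p = 8.93e-06), the latter 0.67 (adjusted p = 0.000695) with the EM libraries alone. Dorsal against ventral striatum gave -1.28 (adjusted p = 2.69e-05) in D2 and 0.29 (adjusted p = 0.181) in D1, the latter 0.50 (adjusted p = 0.0243) by edgeR.

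Gng4 ranged from 6.05 to 19.6 CPM (median 10.5) in D1 and from 0.576 to 4.47 (median 2.27) in D2 dorsal striatum. Ventral striatal Gng4 ranged from 17.9 to 52.0 (median 25.2) in D1 and from 4.65 to 16.97 (median 10.4) in D2 libraries, and prefrontal Gng4 from 33.9 to 107.6 (median 45.2). The D1 libraries were above all D2 libraries in each striatal region, and D2 ventral libraries above all D2 dorsal ones. Gng4 was 3.99-fold higher in D1 than in D2 dorsal striatum, 2.00 ± 0.17 (SE, adjusted p = 1.27e-11), and 2.91-fold higher in ventral striatum, 1.54 ± 0.18 (SE, adjusted p = 3.74e-08). Dorsal was below ventral striatum with a difference of -1.28 in D1 (adjusted p = 2.47e-08) and -1.74 in D2 (adjusted p = 1.56e-08). Cortex was 4.15-fold above D1 dorsal striatum (2.05 ± 0.13, SE, adjusted p = 3.71e-17) and 1.7-fold above D1 ventral striatum (0.77 ± 0.13, SE, adjusted p = 3.05e-06).

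Gng12 ranged from 3.37 to 13.5 CPM (median 5.98) in D1 and from 1.86 to 6.00 (median 3.06) in D2 dorsal striatum. Ventral striatal Gng12 ranged from 4.16 to 9.8 (median 6.47) in D1 and from 2.72 to 9.22 (median 5.35) in D2 libraries, and prefrontal Gng12 from 14.9 to 28.9 (median 20.2). Prefrontal Gng12 lay above every D1 striatal library, by 1.62 ± 0.12 (SE, adjusted p = 2.19e-15) against dorsal and 1.53 ± 0.10 (SE, adjusted p = 1.27e-17) against ventral striatum. Astrocyte markers (Gfap, Aqp4, Aldh1l1, Slc1a3) summed to 8.16 to 50.9 (median 22.4) CPM in cortex and 3.06 to 12.1 (median 5.44) in D1 dorsal striatum, and their part in the Gng12 difference was not tested. Gng10 ranged from 13.5 to 49.5 CPM (median 17.1) in D1 and from 15.6 to 35.5 (median 20.3) in D2 dorsal striatum. Ventral striatal Gng10 ranged from 15.5 to 28.8 (median 23.3) in D1 and from 16.5 to 41.5 (median 23.6) in D2 libraries, and prefrontal Gng10 from 4.21 to 13.2 (median 9.76). Prefrontal Gng10 lay below every D1 striatal library with a difference of -1.05 ± 0.13 (SE, adjusted p = 7.18e-09) against dorsal and -1.24 ± 0.10 (SE, adjusted p = 4.99e-14) against ventral striatum; it overlaps Gm20503 on the same strand, so its counts are uncertain. The other tested gamma subunits, Gng5 and Gng13, had group medians of 1.31 to 4.94 CPM.

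**Figure D3:**
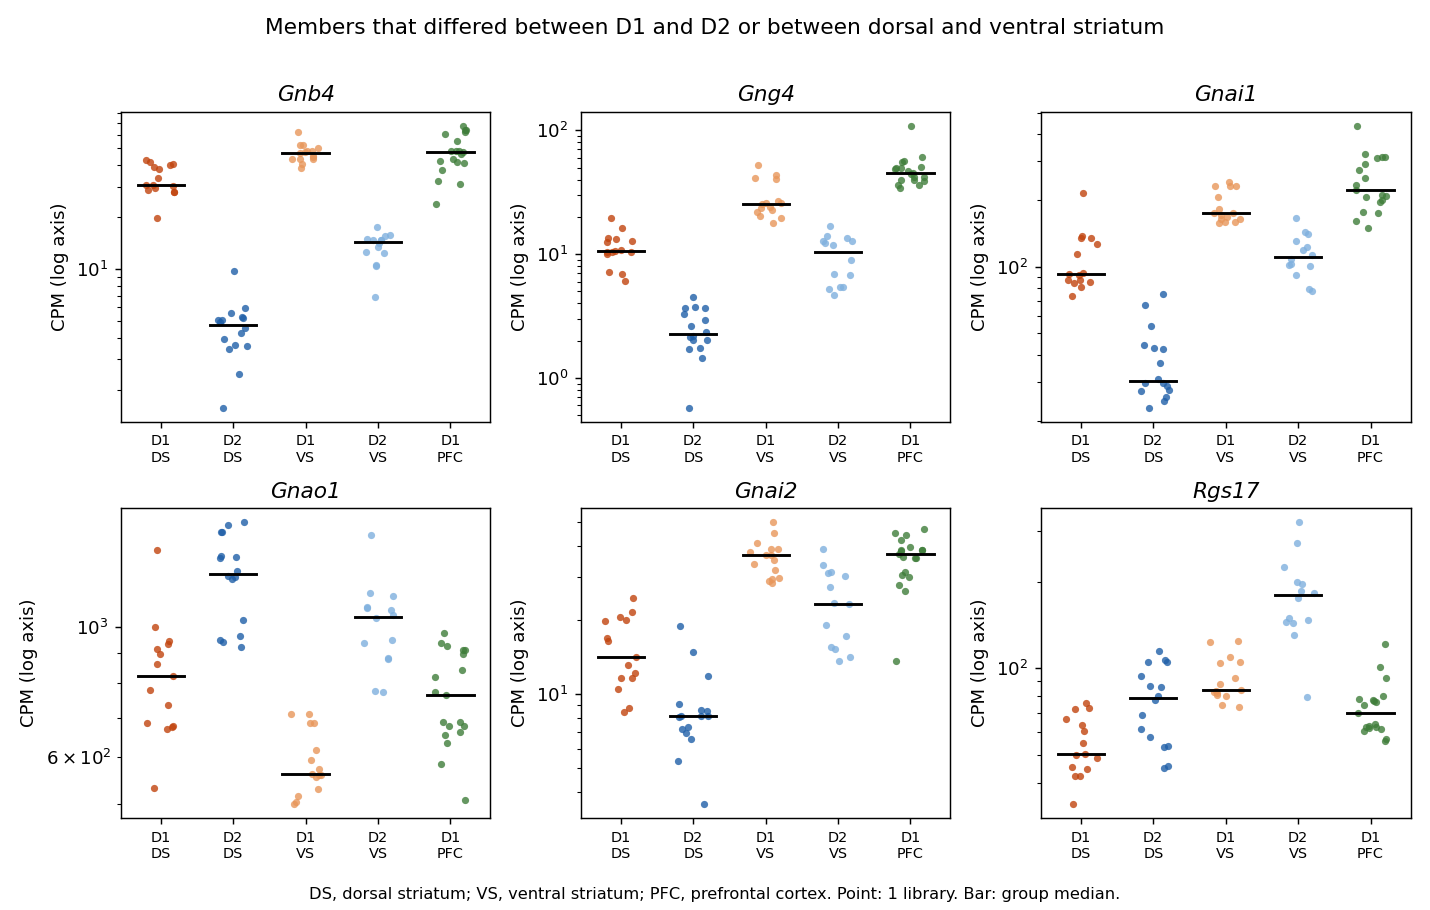
CPM (log axis) of 6 members in each library, by group; points are libraries and bars group medians. Gnb4 and Gng4 separate D1 from D2 libraries in both striatal regions, Gnao1 does so in ventral striatum in the opposite direction, and Gnai2 is higher in ventral than in dorsal striatum.

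Markers of cortical glutamatergic neurons were also higher in the striatal D1 than in the D2 libraries, and several members that were higher in D1 were high in cortex. The 4 glutamatergic markers summed to 23.9 to 107.5 (median 78.9) CPM in D1 and 0.928 to 27.9 (median 6.1) in D2 dorsal striatum, and to 13.7 to 92.1 (median 53.4) and 2.79 to 66.4 (median 9.21) in ventral striatum. All 4 were called higher in D1 in both regions. Their means in D1 dorsal striatum were 10.8% to 15.5% of their prefrontal means, and in D2 dorsal striatum 0.914% to 1.96%. Gnb4 in D1 dorsal striatum was at 70.3% of its prefrontal mean, Gnai1 at 44.7%, Rgs12 at 42.5%, Gng2 at 24.9% and Gng4 at 23.5%, each above the percentages of the 4 glutamatergic markers. The 5 interneuron markers were at 3.35% (Vip) to 31.6% (Pvalb) there, with Sst at 24.95%, so that Pvalb and Sst were not below Gng2 and Gng4. Pvalb (1.08, adjusted p = 0.0051), Sst (1.54, adjusted p = 1.01e-06) and Npy (1.36, adjusted p = 5.33e-06) were called higher in D1 than in D2 dorsal striatum and were not called in ventral striatum, where Lhx6 was called lower in D1 (-0.52, adjusted p = 0.0399). The part of cortical neurons and interneurons in the D1 against D2 differences of the 5 members was not tested. D2 ventral striatum replicate 2 had the highest Slc17a7 of its group (29.6 CPM); without it, the D1 minus D2 difference in ventral striatum was 1.81 for Gnb4, 1.10 for Gng2 and 1.61 for Gng4.

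**Figure D4:**
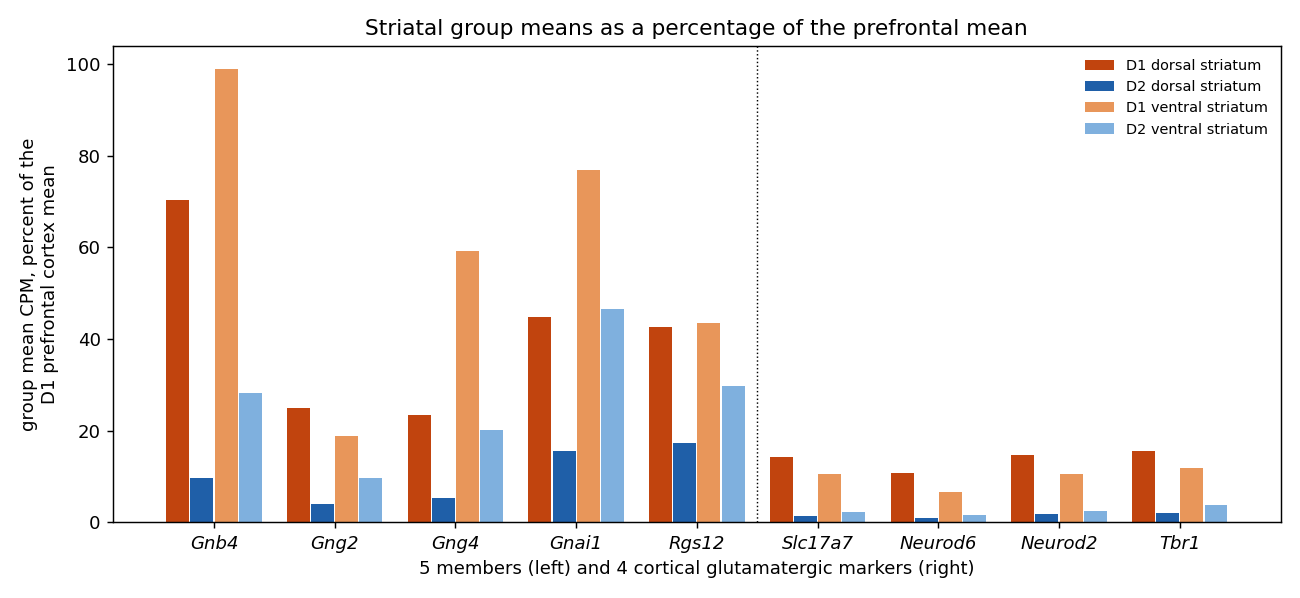
Mean CPM of each striatal group as a percentage of the D1 prefrontal cortex mean, for 5 members (left of the dotted line) and 4 cortical glutamatergic markers (right); bars start at 0 and carry no error. In D1 dorsal striatum the 5 members sit at 23.5% to 70.3% and the 4 markers at 10.8% to 15.5%.

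3 RGS genes that were lower in cortex than in striatum, Rgs9, Rgs4 and Rgs2, are shown with the 250 bases before their RefSeq start (GRCm38.p6), because they differed in size of effect and in whether dorsal and ventral striatum differed. Capitals mark the 2 motifs searched on both strands: the half-site of the cAMP response element, TGACG, which reads CGTCA on the other strand, and the TATA box, TATAAA, which reads TTTATA there. Each is written 5′ to 3′ in the direction of transcription.
Rgs9, chr11:109298182-109298431, minus strand: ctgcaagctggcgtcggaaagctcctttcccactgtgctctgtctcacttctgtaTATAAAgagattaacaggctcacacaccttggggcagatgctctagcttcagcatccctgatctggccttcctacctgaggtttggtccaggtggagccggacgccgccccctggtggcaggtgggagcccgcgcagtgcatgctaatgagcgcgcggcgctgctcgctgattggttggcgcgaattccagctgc
Rgs4, chr1:169747643-169747892, minus strand: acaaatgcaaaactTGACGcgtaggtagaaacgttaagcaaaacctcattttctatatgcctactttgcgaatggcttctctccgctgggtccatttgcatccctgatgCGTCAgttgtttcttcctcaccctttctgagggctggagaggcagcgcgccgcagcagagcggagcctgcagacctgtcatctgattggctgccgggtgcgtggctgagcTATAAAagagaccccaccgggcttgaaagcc
Rgs2, chr1:144004150-144004399, minus strand: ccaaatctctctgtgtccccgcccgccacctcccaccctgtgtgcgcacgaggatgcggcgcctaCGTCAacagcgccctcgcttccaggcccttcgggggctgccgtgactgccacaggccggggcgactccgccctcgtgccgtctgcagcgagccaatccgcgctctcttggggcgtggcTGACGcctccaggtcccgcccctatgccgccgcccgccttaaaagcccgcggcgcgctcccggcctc
Rgs4 and Rgs2 each held the half-site 2 times in this window, 141 and 236 bases before the start in Rgs4 and 67 and 185 bases before it in Rgs2, and Rgs9 held none. The TATA box began 31 bases before the start of Rgs4 and 195 bases before that of Rgs9, and Rgs2 held none; a missing match says only that these letters are not in the window. The half-site was found in 17.8% and the TATA box in 12.4% of 32851 RefSeq promoter windows of this length. Of the 38 members with a window in the table, 8 held the half-site in at least 1 window (19.8% of all genes did) and 5 the TATA box (14.3% of all genes).

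The R7 group (Rgs6, Rgs7, Rgs9 and Rgs11) acts on Gi and Go subunits and pairs with the Gnb5 product, and Rgs9 is known for its high level in striatum. Rgs9 ranged from 65.3 to 124.0 CPM (median 93.3) in D1 and from 53.5 to 106.2 (median 83.9) in D2 dorsal striatum. Ventral striatal Rgs9 ranged from 49.0 to 75.4 (median 68.7) in D1 and from 37.6 to 75.5 (median 56.5) in D2 libraries, and prefrontal Rgs9 from 1.56 to 20.2 (median 3.76). No prefrontal library reached the striatal range. Rgs9 was 19.4-fold lower in cortex than in D1 dorsal striatum, -4.28 ± 0.22 (SE, adjusted p = 3.55e-20), and 14.0-fold lower than in D1 ventral striatum, -3.80 ± 0.21 (SE, adjusted p = 3.77e-19). Dorsal exceeded ventral striatum by 0.48 ± 0.08 (SE, adjusted p = 2.07e-05) in D1 and 0.54 ± 0.12 (SE, adjusted p = 0.000484) in D2, with overlap. The D1 minus D2 difference was 0.22 (adjusted p = 0.121) in dorsal and 0.28 (adjusted p = 0.0129) in ventral striatum, the latter 0.06 (adjusted p = 0.803) with adjustment for the percentage of gene reads.

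Rgs7 ranged from 23.1 to 41.9 CPM (median 29.1) in D1 and from 17.8 to 53.1 (median 32.6) in D2 dorsal striatum. Ventral striatal Rgs7 ranged from 25.3 to 34.2 (median 30.2) in D1 and from 19.3 to 50.3 (median 36.5) in D2 libraries, and prefrontal Rgs7 from 28.2 to 47.0 (median 36.6). All groups overlapped for Rgs7. Cortex exceeded D1 dorsal striatum by 0.28 ± 0.08 (SE, adjusted p = 0.0036) and D1 ventral striatum by 0.27 ± 0.06 (SE, adjusted p = 0.000413), the former 0.18 (adjusted p = 0.0559) by edgeR on the recovered reads, and the D1 minus D2 difference in ventral striatum (-0.26, adjusted p = 0.0449) lost its call in 7 alternatives. Rgs6 ranged from 0.102 to 1.8 CPM (median 0.663) in D1 and from 0.0217 to 1.59 (median 0.163) in D2 dorsal striatum. Ventral striatal Rgs6 ranged from 0.419 to 1.9 (median 1.37) in D1 and from 0 to 1.11 (median 0.411) in D2 libraries, and prefrontal Rgs6 from 1.1 to 5.44 (median 2.85). Rgs6 was low in every group and highest in cortex, 1.58 ± 0.16 (SE, adjusted p = 2.86e-11) above dorsal and 0.90 ± 0.14 (SE, adjusted p = 3.35e-07) above ventral striatum, and was not tested in the comparison of D1 with D2 dorsal striatum or of dorsal with ventral D2 libraries. Against dorsal striatum it passed the filter of 1 CPM through the cortical libraries, the group where it is high, so that test is no independent support. In ventral striatum D1 exceeded D2 (1.00, adjusted p = 9.33e-05; 1.74, adjusted p = 0.000201 with a pseudocount of 0.1 and 0.65, adjusted p = 0.0965 with adjustment for the percentage of gene reads). Rgs7bp, which anchors the R7 complexes at the membrane, was at 262.5 to 550.6 CPM (median 331.7) in D1 and 408.6 to 999.99 (median 613.6) in D2 dorsal striatum and 114.9 to 208.2 (median 143.2) in cortex; it was lower in cortex than in D1 dorsal striatum with a difference of -1.32 ± 0.10 (SE, adjusted p = 1.84e-14).

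In the R4 group of small RGS proteins, Rgs4, which acts on Gi, Go and Gq subunits, set dorsal apart from ventral striatum. Rgs4 ranged from 383.1 to 940.0 CPM (median 649.2) in D1 and from 397.0 to 813.8 (median 564.6) in D2 dorsal striatum. Ventral striatal Rgs4 ranged from 149.3 to 362.7 (median 240.4) in D1 and from 114.0 to 348.8 (median 211.0) in D2 libraries, and prefrontal Rgs4 from 105.3 to 194.4 (median 146.4). In both receptor groups every dorsal library exceeded every ventral library. Rgs4 was 2.59-fold higher dorsally than ventrally in D1, 1.37 ± 0.13 (SE, adjusted p = 1.87e-10), and 2.72-fold higher in D2, 1.44 ± 0.13 (SE, adjusted p = 3.31e-11). It was 4.49-fold lower in cortex than in D1 dorsal striatum, -2.17 ± 0.11 (SE, adjusted p = 2.67e-20), and 1.73-fold lower than in D1 ventral striatum, -0.79 ± 0.10 (SE, adjusted p = 7.31e-09), with overlap. The D1 minus D2 differences, neither of them called with the deposited scaling, were 0.20 (adjusted p = 0.213) in dorsal and 0.27 (adjusted p = 0.105) in ventral striatum. Both were called in 3 alternatives: when scaled to the listed genes (0.26, adjusted p = 0.046, and 0.38, adjusted p = 0.0134), with quantile normalization (0.39, adjusted p = 0.000519, and 0.46, adjusted p = 0.00261) and with adjustment for the percentage of gene reads (0.38, adjusted p = 0.000681, and 0.69, adjusted p = 0.00321).

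Rgs2 ranged from 97.8 to 423.2 CPM (median 178.0) in D1 and from 188.0 to 861.3 (median 276.6) in D2 dorsal striatum. Ventral striatal Rgs2 ranged from 125.8 to 258.1 (median 176.3) in D1 and from 166.3 to 468.5 (median 252.6) in D2 libraries, and prefrontal Rgs2 from 37.3 to 135.4 (median 64.0). Rgs2, an RGS protein with a preference for Gq, had its highest median in D2 dorsal striatum, and the prefrontal libraries overlapped the D1 but not the D2 striatal libraries. It was 2.8-fold lower in cortex than in D1 dorsal striatum, -1.49 ± 0.16 (SE, adjusted p = 1.16e-10), and 2.67-fold lower than in D1 ventral striatum, -1.42 ± 0.12 (SE, adjusted p = 1.5e-13). D1 was below D2 with a difference of -0.69 in dorsal (adjusted p = 0.006) and -0.54 in ventral striatum (adjusted p = 0.000889). The dorsal difference was -0.79 (adjusted p = 0.0797) with the EM libraries alone, and the ventral one was -0.08 (adjusted p = 0.772) with adjustment for the percentage of gene reads. Rgs8 ranged from 125.0 to 246.0 CPM (median 206.3) in D1 and from 209.6 to 361.9 (median 275.7) in D2 dorsal striatum. Ventral striatal Rgs8 ranged from 144.4 to 270.1 (median 201.6) in D1 and from 148.4 to 362.2 (median 270.6) in D2 libraries, and prefrontal Rgs8 from 64.8 to 115.1 (median 99.6). Every prefrontal library was below every D1 striatal library for Rgs8, which acts on Gi and Go. It was 2.13-fold lower in cortex than in dorsal, -1.09 ± 0.09 (SE, adjusted p = 5.16e-14), and 2.16-fold lower than in ventral D1 libraries, -1.11 ± 0.08 (SE, adjusted p = 1.07e-15). D1 was below D2 in dorsal striatum, -0.44 ± 0.09 (SE, adjusted p = 0.000375), and the ventral difference, -0.31 (adjusted p = 0.0211), lost its call in 4 alternatives.

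Rgs16 and Rgs5, of the same group, were low in striatum and higher in cortex. Rgs16 ranged from 0.68 to 3.95 CPM (median 2.26) in D1 and from 0.852 to 4.54 (median 1.97) in D2 dorsal striatum. Ventral striatal Rgs16 ranged from 2.98 to 5.87 (median 4.05) in D1 and from 2.65 to 10.2 (median 5.33) in D2 libraries, and prefrontal Rgs16 from 4.7 to 10.3 (median 7.16). Prefrontal Rgs16 exceeded every D1 dorsal library, by 1.53 ± 0.14 (SE, adjusted p = 4.07e-12), and overlapped the ventral ones, with a difference of 0.75 ± 0.10 (SE, adjusted p = 7.04e-09). Dorsal was below ventral striatum with a difference of -0.78 in D1 (adjusted p = 7.06e-05) and -1.14 in D2 (adjusted p = 1.06e-05). Rgs5 ranged from 0.272 to 3.34 CPM (median 1.41) in D1 and from 0.318 to 5.31 (median 1.63) in D2 dorsal striatum. Ventral striatal Rgs5 ranged from 0.596 to 3.54 (median 1.35) in D1 and from 0.971 to 6.9 (median 2.12) in D2 libraries, and prefrontal Rgs5 from 4.34 to 16.8 (median 8.54). Every prefrontal library was above every D1 striatal library, by 2.11 ± 0.19 (SE, adjusted p = 6.57e-13) against dorsal and 2.13 ± 0.16 (SE, adjusted p = 4.66e-15) against ventral striatum. Rgs5 is widely used as a pericyte marker, and 4 other pericyte markers (Pdgfrb, Kcnj8, Abcc9, Vtn) summed to 0.0192 to 2.52 (median 0.506) CPM in cortex and 0 to 0.53 (median 0.141) in D1 dorsal striatum; Kcnj8 and Abcc9 had a median of 0 in cortex. The part of pericytes in the Rgs5 difference was not tested.

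The RZ group (Rgs17, Rgs19, Rgs20) was first described as acting on the Gnaz product. Rgs17 ranged from 33.7 to 76.0 CPM (median 50.3) in D1 and from 45.0 to 115.3 (median 79.0) in D2 dorsal striatum. Ventral striatal Rgs17 ranged from 73.3 to 124.1 (median 83.9) in D1 and from 79.5 to 322.1 (median 179.3) in D2 libraries, and prefrontal Rgs17 from 55.8 to 121.5 (median 70.1). D2 ventral striatum had the highest median, above every D1 dorsal library, and the other pairs of groups overlapped. In ventral striatum Rgs17 was lower in D1 with a difference of -0.92 ± 0.13 (SE, adjusted p = 1.56e-06), which became -0.50 (adjusted p = 0.0265) with adjustment for the percentage of gene reads. The dorsal difference, -0.47 (adjusted p = 0.011), lost its call with the EM libraries alone (-0.36, adjusted p = 0.145), with the library code as a covariate (-0.36, adjusted p = 0.0843) and with adjustment for the percentage of gene reads (-0.29, adjusted p = 0.0585). Dorsal was below ventral striatum with a difference of -0.77 ± 0.11 (SE, adjusted p = 5.26e-07) in D1 and -1.22 ± 0.16 (SE, adjusted p = 2.18e-07) in D2. Rgs20 ranged from 53.2 to 132.8 CPM (median 84.3) in D1 and from 48.8 to 143.0 (median 85.4) in D2 dorsal striatum. Ventral striatal Rgs20 ranged from 40.7 to 73.2 (median 47.9) in D1 and from 27.6 to 85.6 (median 63.0) in D2 libraries, and prefrontal Rgs20 from 16.6 to 41.5 (median 25.1). All prefrontal libraries were below the D1 dorsal libraries. Rgs20 was 3.08-fold lower in cortex than in D1 dorsal striatum, -1.62 ± 0.13 (SE, adjusted p = 2.42e-14), and lower than in ventral striatum, -0.97 ± 0.11 (SE, adjusted p = 1.51e-10). It was higher dorsally by 0.65 in D1 (adjusted p = 0.000175) and 0.55 in D2 (adjusted p = 0.0125; 0.28, adjusted p = 0.0871 with the OdP libraries alone). Rgs19 had group medians of 5.41 to 10.7 CPM.

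The R12 group holds Rgs10, a small RGS protein, and Rgs12 and Rgs14, which also bind inactive Gi subunits through a GoLoco motif. Rgs12 ranged from 5.22 to 14.8 CPM (median 11.8) in D1 and from 1.38 to 7.46 (median 4.27) in D2 dorsal striatum. Ventral striatal Rgs12 ranged from 6.92 to 14.1 (median 10.9) in D1 and from 3.69 to 12.1 (median 7.98) in D2 libraries, and prefrontal Rgs12 from 19.0 to 37.5 (median 25.9). Prefrontal libraries exceeded all D1 striatal ones. Rgs12 was higher in cortex by 1.25 ± 0.13 (SE, adjusted p = 4.15e-11) against dorsal and 1.17 ± 0.09 (SE, adjusted p = 1.77e-14) against ventral striatum. It was 2.3-fold higher in D1 than in D2 dorsal striatum, 1.199 ± 0.17 (SE, adjusted p = 1.09e-06), and higher in ventral striatum by 0.57 (adjusted p = 0.00209), which became 0.23 (adjusted p = 0.483) with adjustment for the percentage of gene reads. Rgs14 ranged from 2.03 to 14.0 CPM (median 11.1) in D1 and from 5.1 to 16.6 (median 7.29) in D2 dorsal striatum. Ventral striatal Rgs14 ranged from 9.11 to 18.7 (median 13.5) in D1 and from 3.06 to 16.4 (median 11.2) in D2 libraries, and prefrontal Rgs14 from 2.61 to 7.3 (median 4.53). Every D1 ventral library exceeded every prefrontal one. Rgs14 was lower in cortex with a difference of -0.88 ± 0.16 (SE, adjusted p = 1.33e-05) against dorsal and -1.38 ± 0.11 (SE, adjusted p = 8.12e-15) against ventral striatum, and its other 2 calls, between D1 and D2 ventral striatum (0.39, adjusted p = 0.0453) and between dorsal and ventral D1 libraries (-0.49, adjusted p = 0.0219), were lost in 5 and 4 alternatives. Rgs10 ranged from 5.82 to 29.0 CPM (median 12.0) in D1 and from 8.2 to 24.1 (median 11.6) in D2 dorsal striatum. Ventral striatal Rgs10 ranged from 11.8 to 20.8 (median 15.9) in D1 and from 8.67 to 26.4 (median 15.8) in D2 libraries, and prefrontal Rgs10 from 3.82 to 17.6 (median 10.9). All groups overlapped; Rgs10 was lower in cortex than in D1 ventral striatum, -0.61 ± 0.12 (SE, adjusted p = 4.6e-05), and its dorsal against ventral difference in D1 (-0.46, adjusted p = 0.0107) was lost in 3 alternatives. Rgs10 is also expressed by microglia, whose markers (Cx3cr1, Csf1r, Tmem119, P2ry12) summed to medians of 2.12 to 2.91 CPM in the 5 groups.

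Ratios within a library depend on scaling only through the pseudocount, and 3 were compared: Gnal to Gnas, Gng7 to Gng3 and Rgs9 to Rgs7. Each is the log2 of the ratio of CPM + 0.5, tested in 6 comparisons by a two-sided permutation test with 100000 resamples, whose smallest p is 2e-05, and adjusted over the 18 tests. The Gnal to Gnas log2 ratio was 1.16 to 3.75 (median 1.98) in D1 and 2.53 to 3.88 (median 3.23) in D2 dorsal striatum. In ventral striatum this ratio was 0.79 to 2.28 (median 1.39) in D1 and 0.98 to 2.47 (median 1.70) in D2, and in cortex -3.14 to -1.76 (median -2.62). These ratios are not corrected for gene length, so that only their differences between groups are read. Every prefrontal library was below every striatal one. The difference between group means was -4.70 (adjusted p = 4e-05) for cortex against dorsal and -3.99 (adjusted p = 4e-05) against ventral striatum. D1 was below D2 with a difference of -1.06 (adjusted p = 0.000108) in dorsal striatum, and the ventral difference was -0.27 (adjusted p = 0.143); dorsal exceeded ventral striatum by 0.71 (adjusted p = 0.00529) in D1 and 1.502 (adjusted p = 4e-05) in D2.

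The Gng7 to Gng3 log2 ratio was 0.70 to 1.76 (median 1.19) in D1 and 1.597 to 2.64 (median 2.23) in D2 dorsal striatum, 0.54 to 1.31 (median 0.93) and 0.94 to 1.96 (median 1.38) in ventral striatum and -5.07 to -2.37 (median -4.39) in cortex. The prefrontal libraries were again below all striatal ones, with differences from D1 striatum of -5.39 (adjusted p = 4e-05) and -5.07 (adjusted p = 4e-05). D1 was below D2 with a difference of -0.96 (adjusted p = 4e-05) in dorsal and -0.52 (adjusted p = 0.000196) in ventral striatum. The Rgs9 to Rgs7 log2 ratio was 0.74 to 2.07 (median 1.62) in D1 and 0.26 to 2.10 (median 1.23) in D2 dorsal striatum and -4.24 to -0.47 (median -3.03) in cortex. Cortex minus D1 striatum was -4.56 (adjusted p = 4e-05) for dorsal and -4.07 (adjusted p = 4e-05) for ventral libraries. Dorsal exceeded ventral striatum by 0.49 (adjusted p = 0.00042) in D1 and 0.69 (adjusted p = 0.00149) in D2, and D1 exceeded D2 in ventral striatum by 0.54 (adjusted p = 0.000471), whereas the dorsal difference was 0.34 (adjusted p = 0.0546) and 0.08 with the EM libraries alone.

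**Figure D5:**
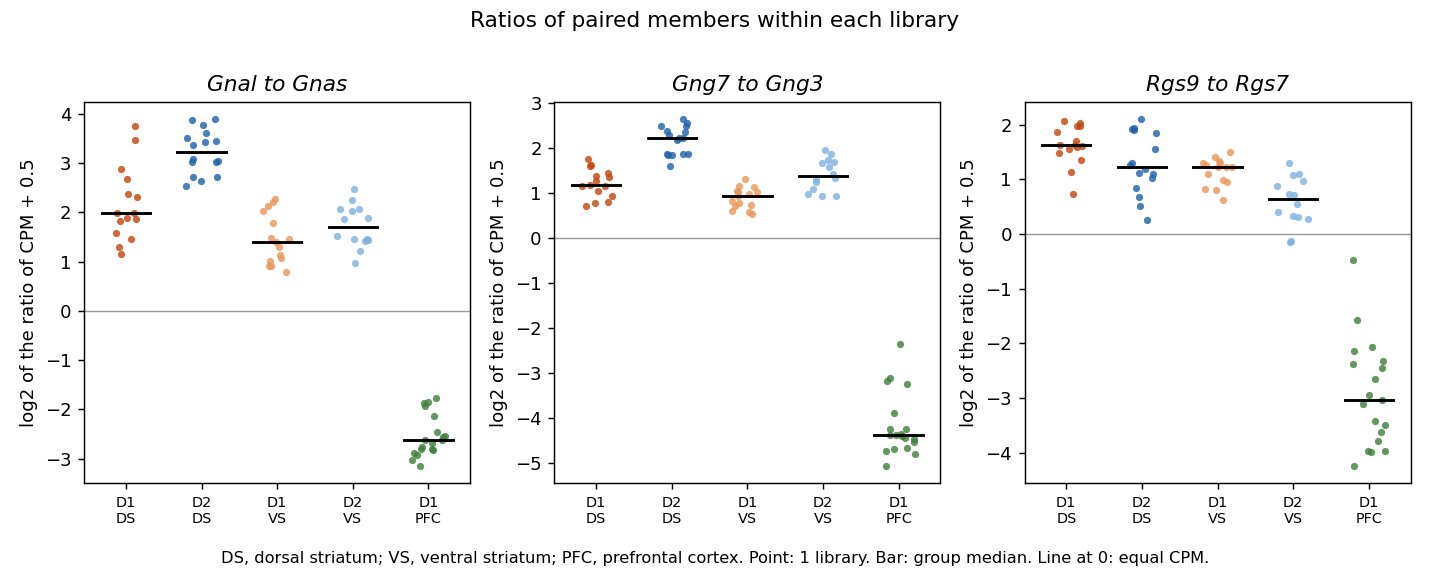
Log2 ratio of 2 members within each of the 79 libraries, by group; points are libraries, bars group medians and the grey line is at 0, with no correction for gene length. For each ratio, every prefrontal library is below every striatal library.

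Whether the D1 minus D2 difference of a member itself differed between dorsal and ventral striatum was tested with an interaction term over the 4 striatal groups. It was called for 4 of 38 tested members, all with a more positive difference dorsally, beside 2.64% of all genes tested (1.93% higher, 0.707% lower), and 1 of the 4 passed 2-fold, beside 0.935% of all genes. The difference was larger dorsally for Gng2 by 1.58 ± 0.29 (SE, adjusted p = 0.00021), for Gnb4 by 0.99 ± 0.18 (SE, adjusted p = 0.000202) and for Gnai1 by 0.81 ± 0.19 (SE, adjusted p = 0.00835). For Gnas, which was 0.34 between D1 and D2 dorsally and -0.31 ventrally, the term was 0.65 ± 0.18 (SE, adjusted p = 0.0261). Among the marker lists, the interaction was called for all 4 D2 neuron markers (Adora2a, Drd2, Gpr6, Penk; median -2.01) and for Npy and Sst of the 4 interneuron markers tested (median 1.00). It was called for none of the 4 glutamatergic markers (median 0.97), whose sum had medians of 78.9 and 6.10 CPM in D1 and D2 dorsal and of 53.4 and 9.21 in ventral striatum. The part of these markers' cells in the 4 calls was not tested. With the EM libraries alone the calls for Gnai1 (0.76, adjusted p = 0.145) and Gnas (0.67, adjusted p = 0.0783) were lost, and with quantile normalization that for Gnas (0.52, adjusted p = 0.116).

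Levels of different members were set side by side per kilobase of exon, with the lengths of GENCODE M21 and as a share of the summed CPM per kilobase of a family. The annotation behind the counts is not given in the sources used here, so each share was also taken with the median transcript length, an alternative chosen after seeing the data, and only orders that held under both are given. Gnb1 made up the largest share of the beta subunits in every group, with medians of 78.7% in D1 dorsal striatum, 83.6% in D2 dorsal striatum and 88.6% in cortex (68.9%, 77.4% and 80.2% with the median transcript). Gng7 was first of the gamma subunits in D2 dorsal (60.7%; 57.3%) and D2 ventral striatum (46.1%; 40.8%), and in cortex it held 1.34% (0.533%). Rgs4 was first of the RGS proteins in D1 dorsal (57.7%; 45.0%) and D2 dorsal striatum (47.1%; 35.0%) and in cortex (35.7%; 26.8%), and Rgs2 was first in D2 ventral striatum (27.9%; 32.9%). The order of the leading alpha subunits changed with the length used.

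Genes that fold, anchor or switch off G proteins and receptors (17 in the table) and genes of direct G protein effectors (20) were followed as lists that were chosen with earlier results of these data known. Between cortex and D1 dorsal striatum 11 of 13 tested partners were called (7 higher and 4 lower in cortex; median difference 0.36) and 14 of 16 effectors (10 higher, 4 lower; median 1.31), beside the 54.8% of all genes given above. Ric8b, the chaperone of the Gnal and Gnas products, was at 65.8 to 101.4 CPM (median 81.2) in D1 dorsal striatum, 59.2 to 79.6 (median 71.7) in D1 ventral striatum and 15.6 to 22.4 (median 19.5) in cortex. It was 4.21-fold lower in cortex than in D1 dorsal striatum, -2.07 ± 0.06 (SE, adjusted p = 3.6e-26), without overlap, as was Gnal. Adcy5, the main adenylyl cyclase of striatal neurons, was at 171.5 to 295.5 CPM (median 220.1) in D1 dorsal striatum and 14.6 to 34.5 (median 20.9) in cortex, 10.5-fold lower, -3.39 ± 0.11 (SE, adjusted p = 6.98e-26). Gpr158, which binds R7 complexes, was lower in cortex with a difference of -1.74 (adjusted p = 2.35e-16) and Gpsm1, a GoLoco protein with a difference of -1.24 (adjusted p = 9.29e-09). Higher in cortex were Adrbk2 and Adrbk1, kinases that bind free beta and gamma subunits (2.45, adjusted p = 4.69e-18, and 1.12, adjusted p = 6.65e-12).

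Among effectors, the cyclases Adcy1 (1.79), Adcy2 (2.36), Adcy6 (1.59) and Adcy8 (1.55), the phospholipase Plcb4 (2.07) and the G protein gated potassium channels Kcnj3 (1.70), Kcnj6 (2.60) and Kcnj9 (1.42) were called higher in cortex than in D1 dorsal striatum, with adjusted p of at most 5e-08. The cyclases Adcy3 and Adcy5 and the phospholipases Plcb1 and Plcb2 were called lower. Between D1 and D2 dorsal striatum 8 of 13 partners (4 higher, 4 lower in D1) and 5 of 14 effectors (3 higher, 2 lower) were called, beside 25.9% of all genes, and in ventral striatum 8 of 13 and 9 of 15, beside 47.7%. Dorsal against ventral striatum gave 8 of 13 partners and 10 of 15 effectors in D1, beside 34.6% of all genes, and 6 of 13 and 9 of 14 in D2, beside 28.5%. The interaction of receptor and region was called for Kcnj3 alone among the 13 partners and 16 effectors tested: its D1 level was above D2 dorsally (0.64, adjusted p = 0.000294) and lower ventrally (-0.45, adjusted p = 0.0178), an interaction of 1.08 ± 0.20 (SE, adjusted p = 0.000317).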

How the data were processed

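The table holds CPM that the authors deposited for 25899 gene symbols in 79 libraries. Per the submitters' processing notes, Trim Galore 0.4.2, cutadapt 1.9.1, FastQC, HISAT2 and the build GRCm38 were used; the counting program, its annotation and its strand setting are not given in the sources used here. Amplified cDNA of the pulled-down RNA was sequenced, per the labels' protocols. CPM divides by all reads of a library, of which 31.0% to 40.2% were in listed genes. All deposited CPM values were whole multiples of 1 read within 0.02 reads (100% of values), so whole reads were recovered.

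Groups came from the receptor and region labels. Replicate numbers follow accession order and pair nothing, and p-values measure the spread between libraries, since the labels do not say that pools of mice were separate. Each comparison was fitted with limma 3.58.1 (R 4.3.3; trend, two-sided) on log2(CPM + 0.5) in its 2 groups, over genes with at least 1 CPM in as many libraries as the smaller group holds, with Benjamini-Hochberg adjustment over all genes tested. The edgeR 4.0.16 quasi-likelihood test on recovered reads was an alternative, as were other pseudocounts, filters, scalings, covariates and library subsets. Ratios were tested with SciPy 1.17.1. The fits were also run on simulated counts with known changes, drawn independently for each library. The simulation held no library code, shared mice or shift in the percentage of gene reads, so it cannot speak to these.

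Members named with values were those called that differed by 1 or more on the log2 scale, with a higher group mean of 5 CPM or more (at most 6 per direction and comparison), up to 4 interaction calls of that level, and a preset list of 32, of which Gnb3 and Rgs11 were not tested. The members, lists and rule were chosen with earlier results of these data known. Promoter windows and motif counts came from RefSeq (GRCm38.p6), with 38 of 51 members matched.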

Additional observations from a re-analysis of the deposited data

Results flagged for a closer look

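For 4 members the D1 minus D2 difference differed between dorsal and ventral striatum by the interaction test (limma, adjusted p under 0.05). The dorsal minus ventral values were 1.58 for Gng2, 0.99 for Gnb4, 0.81 for Gnai1 and 0.65 for Gnas in log2(CPM + 0.5). Gng2, Gnb4 and Gnai1 were higher in D1 in both regions and more so dorsally. Gnas gave 0.34 dorsally (adjusted p = 0.0803) and -0.31 ventrally (adjusted p = 0.00629), and its ventral call was lost in 4 alternatives. The interaction calls for Gnai1 and Gnas were lost with the EM libraries alone, and that for Gnas also with quantile normalization.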

How the results depend on the processing

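The number of members called stayed within 1.5 times the reported one under every alternative run, with 3 exceptions. Between D1 and D2 ventral striatum 27 became 10 with adjustment for the percentage of gene reads (9 of the 27, namely Gnai1, Gnao1, Gnaz, Gnb4, Gnb5, Gng2, Gng4, Rgs17 and Rgs19, and in addition Rgs4), where all genes went from 47.7% to 10.7% called, and that fit turned Gnaq to 0.0516 and Gnb2 to -0.0501. The percentage had medians of 34.7% in D1 and 38.2% in D2 ventral libraries, so the adjustment and the receptor label cannot be fully told apart. The interaction calls, 4, became 9 with array weights and 2 with the EM libraries alone, where 6.91% and 1.95% of all genes were called in place of 2.64%; the cause was not tested. The 18 ratios kept their direction and their side of the threshold under the alternatives run for them. These were pseudocounts of 0.1 and 1, the EM libraries alone, and fits without D2 ventral striatum replicate 2 or D1 prefrontal cortex replicate 6. Ratios were not run with the library code or the percentage of gene reads as a covariate. Over single members, 2888 of 3016 recomputed values kept their side of the threshold, 74 lost a call, 52 gained one and 2 called values turned. Values called in neither fit count among the 2888 even where their sign changed. An example is Rgs14 between D1 and D2 dorsal striatum, at -0.197 to 0.197 over the alternatives. No paired analysis was run, because the labels name no mice and the replicate numbers pair nothing. Similar or consecutive library names in different groups may mark shared mice, which the labels do not say. All comparisons therefore treat the libraries as unpaired. The alternatives without D1 prefrontal cortex replicate 6 and with the median transcript length were chosen after seeing the data. The 13 untested members did not pass the filter of 1 CPM, and low levels limit the precision for Rgs3, Rgs6, Gng5 and Gng13.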
